A study of Mus musculus with 6 samples.

Results

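The Dlx homeobox family was read in RNA of cultured mouse interneurons that carried a virus with a hairpin against Brpf1 or with a scrambled hairpin. Its members were taken as the rows of the expression table whose symbol is Dlx1, Dlx2, Dlx3, Dlx4, Dlx5, Dlx6 or Dlx6os1. These 7 symbols gave 8 of the 55335 genes in the table, since Dlx6os1 stands on 2 rows: the long antisense RNA (ENSMUSG00000090063) and a short RNA of 146 nt (ENSMUSG00000098326). The filter for testing, an average of 1 FPKM or more in either group, was met by 5 of the 8 rows, namely Dlx1, Dlx2, Dlx5, Dlx6 and the long Dlx6os1. FPKM counts fragments relative to transcript length and library depth, so that levels of different genes can be set side by side.

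Both groups were primary GABAergic interneurons from wild-type C57BL/6 brain at embryonic day 14.5, exposed to adeno-associated virus (AAV) for 12 hours. The virus was AAV-shbrpf1 in 3 samples and AAV-scramble in 3, each set numbered 1 to 3 in the titles. Cells without virus were not analysed here, and the sources used here do not give the promoter of the hairpin or the time from infection to harvest. One label field calls the source neural progenitor cells. Nothing says that the samples of a group were separate cultures or litters, so the p-values speak only to the scatter among these samples, possibly technical scatter. Brpf1, the target of the hairpin and a scaffold of histone acetyltransferase complexes, measured 3.29, 5.45 and 4.84 FPKM under the scrambled hairpin and 3.13, 4.58 and 3.78 FPKM under the Brpf1 hairpin. These ranges overlapped, and the lower group mean with the hairpin did not pass the test (limma adjusted p = 1). Within pairs 1, 2 and 3 Brpf1 differed by -4.88%, -16% and -21.8%, lower in 3 of 3 as were 11.3% of all genes tested, and with the pairs as a block the 95% interval of its log2 difference was -0.44 to 0.07.

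Dlx genes encode homeodomain transcription factors related to Drosophila Distal-less. In mammals they lie as pairs of convergently transcribed genes that share enhancers in the space between them. In the ventral forebrain Dlx1 and Dlx2 act in progenitors and early neurons, switch on Dlx5 and Dlx6, and are needed for interneurons to migrate and to make GABA. Dlx6os1, also called Evf2, is a long noncoding RNA transcribed across an enhancer of the Dlx5 and Dlx6 locus that acts on the activity of the neighbouring genes. Dlx3 and Dlx4 are known mainly from tissues outside the brain, such as skin and placenta.

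The members lie at 3 loci, given here in GRCm38 coordinates. Dlx1 runs on the plus strand at chr2:71528113-71533981 and Dlx2 on the minus strand at chr2:71543408-71546754, with 9.426 kb between them. Dlx6 runs on the plus strand at chr6:6863334-6868568 and Dlx5 on the minus strand at chr6:6877805-6882085, 9.236 kb apart. Dlx6os1 covers chr6:6820189-6871592 on the minus strand and so passes across all of Dlx6, and the short row lies at its 5′ end (chr6:6871488-6871633). Dlx3 and Dlx4 face each other on chromosome 11, plus strand at chr11:95120119-95125296 and minus strand at chr11:95140447-95146263.

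**Figure D1:**
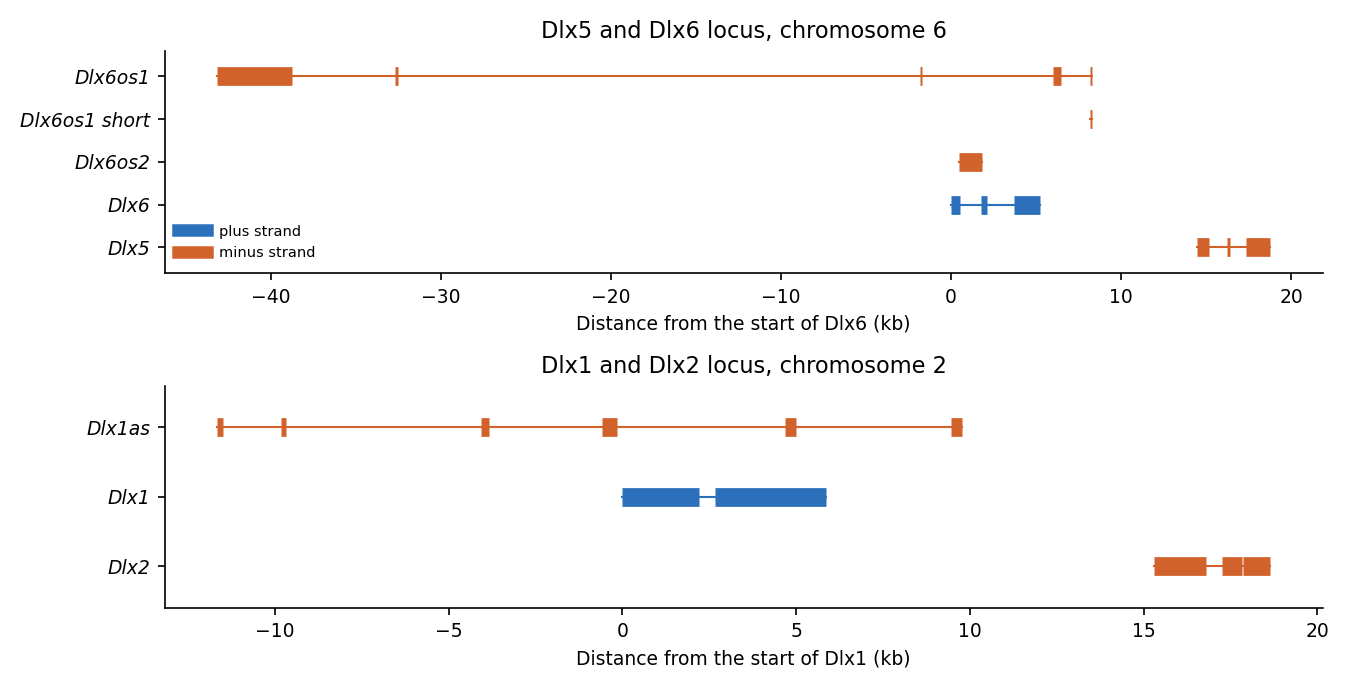
Gene models of the Dlx5 and Dlx6 locus (top) and the Dlx1 and Dlx2 locus (bottom) from GENCODE M21. The x axis is the distance in kb from the start of Dlx6 or Dlx1, boxes are the union of annotated exons, thin lines the span of the gene, and colour gives the strand. Dlx6os1 spans Dlx6 on the other strand with no exon in common, while exons of Dlx1as overlap Dlx1.

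The homeobox, the 180 coding bases for the part that binds DNA, is what the 4 measured coding members share, and it is printed to show how far their transcripts can be told apart. Each is read 5′ to 3′ on the coding strand from GENCODE M21 transcripts, with the intron left out, and capitals mark the 74 positions at which the 4 differ. The other 106 positions are identical in all 4.
Dlx1: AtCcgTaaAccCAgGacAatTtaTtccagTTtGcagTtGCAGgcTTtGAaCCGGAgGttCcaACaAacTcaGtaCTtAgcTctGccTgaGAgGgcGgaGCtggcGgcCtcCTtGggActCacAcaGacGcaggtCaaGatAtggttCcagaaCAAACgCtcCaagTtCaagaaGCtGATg
Dlx2: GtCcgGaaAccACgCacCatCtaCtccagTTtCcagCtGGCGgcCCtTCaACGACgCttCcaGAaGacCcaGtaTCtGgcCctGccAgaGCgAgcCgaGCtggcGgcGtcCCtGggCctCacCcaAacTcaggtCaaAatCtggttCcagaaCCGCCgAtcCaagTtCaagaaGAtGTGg
Dlx5: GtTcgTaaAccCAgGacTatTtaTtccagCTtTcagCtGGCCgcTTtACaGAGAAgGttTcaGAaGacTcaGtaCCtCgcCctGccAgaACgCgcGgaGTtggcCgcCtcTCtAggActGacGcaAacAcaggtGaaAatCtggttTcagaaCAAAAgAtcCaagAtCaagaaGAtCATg
Dlx6: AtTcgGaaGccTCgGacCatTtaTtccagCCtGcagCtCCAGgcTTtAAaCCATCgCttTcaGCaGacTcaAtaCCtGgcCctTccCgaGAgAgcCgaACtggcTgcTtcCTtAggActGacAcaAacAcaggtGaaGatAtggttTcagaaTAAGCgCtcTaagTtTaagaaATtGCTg
These homeoboxes lie across exons 2 and 3 at chr2:71531025-71532311 (plus strand), chr2:71544877-71545515 (minus), chr6:6878441-6879657 (minus) and chr6:6865140-6867088 (plus). Neighbours in a pair were not the closest in sequence. Dlx1 and Dlx2 shared 73.9% of bases and Dlx5 and Dlx6 73.3%, whereas Dlx1 and Dlx6 shared 76.7% and Dlx2 and Dlx5 75.6%. Between whole transcripts of any pair of the 6 Dlx coding genes, no identical run was longer than 23 nt.

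For the noncoding member the 250 bases before each of its 2 RefSeq starts are shown (GRCm38.p6, minus strand, 5′ to 3′). Capitals mark TAATTA, the core that homeodomain proteins prefer, and TATAAA, the TATA box, searched on both strands.
Dlx6os1, chr6:6869534-6869783: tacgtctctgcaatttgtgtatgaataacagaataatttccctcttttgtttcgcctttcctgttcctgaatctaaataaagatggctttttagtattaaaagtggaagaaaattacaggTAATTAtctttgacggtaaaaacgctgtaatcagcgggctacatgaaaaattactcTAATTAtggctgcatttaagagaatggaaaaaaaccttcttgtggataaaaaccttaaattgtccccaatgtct
Dlx6os1, chr6:6861684-6861933: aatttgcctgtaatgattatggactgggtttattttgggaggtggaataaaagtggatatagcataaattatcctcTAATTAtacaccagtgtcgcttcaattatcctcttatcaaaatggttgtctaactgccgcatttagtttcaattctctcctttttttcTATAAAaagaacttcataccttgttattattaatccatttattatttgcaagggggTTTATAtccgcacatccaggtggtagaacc
The first window holds TAATTA 130 and 74 bases before the start, and all of its 250 bases are also exon of another Dlx6os1 transcript in GENCODE. In the second window TAATTA begins 174 bases before the start and TATAAA matches begin 86 and 30 bases before it. TAATTA occurred in 4.84% of 32851 such windows genome-wide. These windows are poor in G and C, at 33.2% and 34% GC, and among the 1644 windows of at most 35% GC the share with TAATTA was 22.4%. TATAAA was found in 12.4% of all windows and in 46.3% of those poor in GC. The Dlx2 window, at 66.4% GC, held neither motif. RefSeq windows for Dlx3, Dlx4, Dlx5 and Dlx6 were not used here.

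Low values placed the depth of the libraries between 13.1 and 21.1 M fragments. Interneuron markers, Sst among them, were abundant, with all 16 measured and a summed level of 937 to 1339 FPKM with AAV-scramble and 964 to 1125 with AAV-shbrpf1. The 10 pan-neuronal markers summed to 971 to 1122 and 1031 to 1063 FPKM. Progenitor markers, led by Fabp7 and Slc1a3, summed to 330 to 919 FPKM with AAV-scramble and 296 to 970 with AAV-shbrpf1, astrocyte markers to 253 to 460 and 248 to 429, and oligodendrocyte lineage markers to 128 to 305 and 147 to 293. Sums stayed at or below 1.03 FPKM for glutamatergic neurons, 0.825 for microglia (Cx3cr1 at 0 throughout) and 0.263 for surface ectoderm (Krt5, Krt8 and Krt14 at 0 throughout). The libraries are bulk RNA, in which fewer cells of a type and less RNA per cell cannot be told apart. Between viruses, libraries of the same number resembled each other more (Pearson correlation of levels 0.978 to 0.984) than libraries of different numbers did (at most 0.938).

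By the mean over 6 libraries Dlx6os1 and Dlx1 were the most abundant members, Dlx5 and Dlx2 followed, and Dlx6 was lowest or next to lowest in 5 of 6 libraries when Dlx3, Dlx4 and the short RNA are set aside. Dlx1, which with Dlx2 starts the GABAergic programme, measured 21.8, 21.7 and 40.3 FPKM in AAV-scramble libraries 1, 2 and 3 and 23.9, 17.3 and 35.6 FPKM in AAV-shbrpf1 libraries 1, 2 and 3. Both libraries numbered 3 were high, and the groups overlapped. Dlx2, its neighbour, measured 6.87, 9.99 and 18.1 FPKM under the scrambled hairpin and 7.39, 8.99 and 13.9 FPKM under the Brpf1 hairpin. The order of the numbers was the same under both viruses, lowest in number 1 and highest in number 3.

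Dlx5, a later factor of the cascade that continues in postmitotic interneurons, stood at 9.66, 18.7 and 18.4 FPKM under the scrambled hairpin and at 10.6, 16.6 and 14.9 FPKM under the Brpf1 hairpin. The libraries numbered 1 were the low ones under both viruses. Dlx6, the partner of Dlx5, showed the opposite order, at 10.7, 4.87 and 5.92 FPKM under the scrambled hairpin and 9.57, 4.95 and 5.82 FPKM under the Brpf1 hairpin. Here the libraries numbered 1 were the high ones. The antisense RNA Dlx6os1 was also highest there, at 51.6, 16.7 and 20.4 FPKM under the scrambled hairpin and 43.9, 9.91 and 29.3 FPKM under the Brpf1 hairpin. It had the widest range of the members and differed most within pairs.

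**Figure D2:**
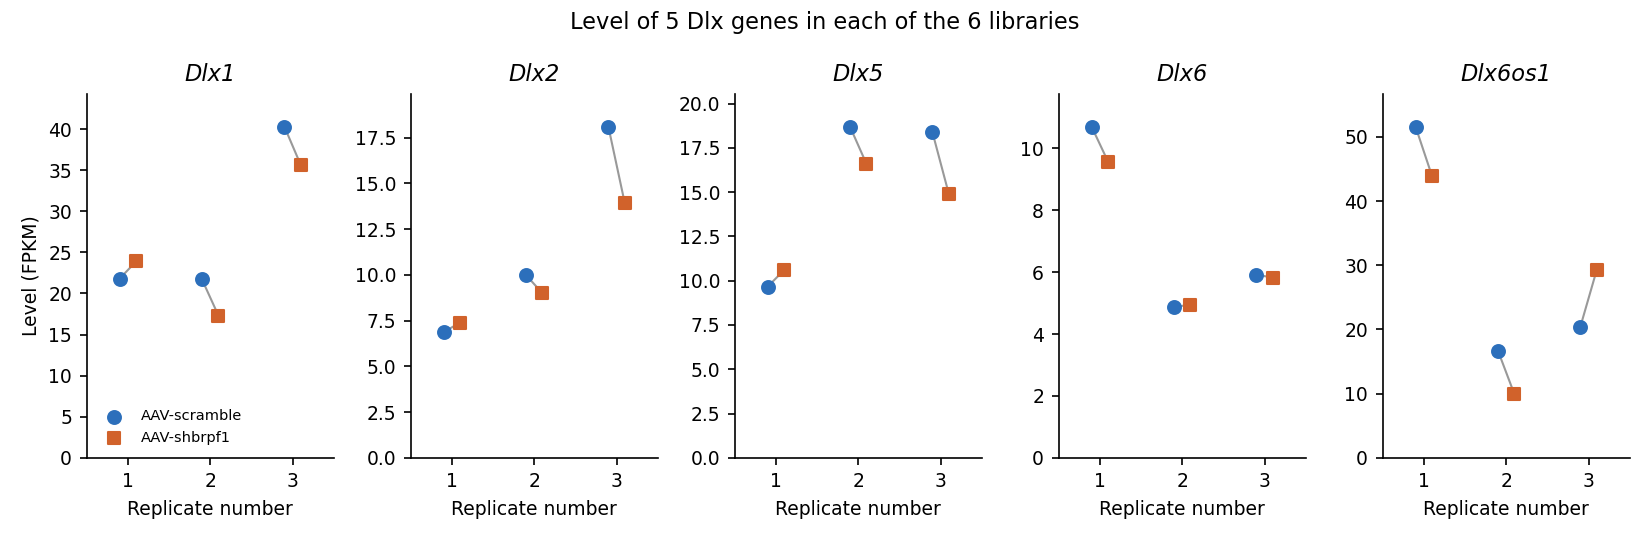
Level of Dlx1, Dlx2, Dlx5, Dlx6 and Dlx6os1 in FPKM (linear y axis from 0, its scale set per gene) against the replicate number of the library. Blue circles are AAV-scramble, orange squares AAV-shbrpf1, and grey lines join libraries of the same number. Gaps within a number include those of Dlx2 (18.1 and 13.9 FPKM), Dlx5 (18.4 and 14.9) and Dlx6os1 (20.4 and 29.3) in number 3. Dlx1 and Dlx2 are highest in number 3, and Dlx6 and Dlx6os1 are highest in number 1, at 10.7 and 51.6 FPKM with AAV-scramble.

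The remaining members were at the limit of detection. Dlx3 was listed at 0 in the libraries numbered 1 and 2 of both viruses and at 0.0275 and 0.0463 FPKM in number 3, an estimate of at most 2 fragments. Dlx4 was listed at 0 in all 6 libraries. The short Dlx6os1 row measured 1.17, 0.132 and 0.404 FPKM under the scrambled hairpin and 0.235, 1.79 and 0.719 FPKM under the Brpf1 hairpin. At 146 nt this is an estimate of at most 3 fragments in any library, and 71.2% of its length is also exon of the long Dlx6os1. No difference between libraries can be read from these rows at this depth.

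The order of levels was partly fixed. Dlx1 exceeded Dlx5 in 6 of 6 libraries, by 1.04 to 2.39 times, and Dlx5 exceeded Dlx2 in 6 of 6, by 1.02 to 1.87 times. At the lower end of both ranges these neighbours were nearly level. Dlx6os1 exceeded Dlx6 and Dlx2 in 6 of 6 libraries. It exceeded Dlx1 in 2 of 6, both numbered 1, at up to 2.36 times its level, and was as low as 0.506 times Dlx1 elsewhere. Dlx2 exceeded Dlx6 in 4 of 6 libraries, and Dlx5 exceeded Dlx6 in 5 of 6. Neither Dlx6os1 and Dlx1 nor Dlx2 and Dlx6 thus have a fixed order in these libraries.

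The comparison of viruses asked whether the Dlx genes differed with the hairpin against Brpf1, whose own level did not differ past the threshold, and no member passed the test. Of the 5 members tested, 0 had an adjusted p under 0.05, on a background where 0% of all 12792 genes did (23 genes, or 0.18%, at an unadjusted p under 0.05). In the fit blocked by replicate number the background was again 0% (2.19% unadjusted). Group means were 27.95 ± 10.7 FPKM with AAV-scramble and 25.6 ± 9.25 with AAV-shbrpf1 for Dlx1 (SD, n = 3). For Dlx2 they were 11.7 ± 5.81 and 10.1 ± 3.38 FPKM, and for Dlx5 15.6 ± 5.13 and 14.1 ± 3.09. The group means of Dlx6 were 7.17 ± 3.12 and 6.78 ± 2.46 FPKM, and of Dlx6os1 29.6 ± 19.2 and 27.7 ± 17.1. In each gene the groups differed by less than 1 SD of either group, an SD that includes the spread between replicate numbers.

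On the log2(FPKM + 1) scale the difference AAV-shbrpf1 minus AAV-scramble was -0.12 ± 0.36 (SE) for Dlx1, with a 95% interval of -0.97 to 0.73. For Dlx2 it was -0.14 ± 0.38 (-1.04 to 0.77), for Dlx5 -0.11 ± 0.32 (-0.86 to 0.65) and for Dlx6 -0.05 ± 0.35 (-0.87 to 0.77). That of Dlx6os1 was -0.14 ± 0.61 (-1.57 to 1.29), and every limma adjusted p was 1. Outside Dlx6os1 these intervals reach down to -1.04 and up to 0.77. Blocking by replicate number narrowed the intervals to -0.39 to 0.15 for Dlx1, -0.42 to 0.14 for Dlx2, -0.37 to 0.16 for Dlx5, -0.28 to 0.18 for Dlx6 and -0.69 to 0.41 for Dlx6os1. The log2 difference was negative for 5 of 5 members, as it was for 59.5% of all genes tested, whose median was -0.02. Without a block the negative sign was not stable, since each turned positive when one or more single libraries were left out, which breaks a pair. With whole pairs left out under the block, the difference ran from -0.24 to -0.02 for Dlx1, -0.25 to -0.02 for Dlx2 and -0.22 to -0.01 for Dlx5. For Dlx6 and Dlx6os1 it turned positive without 1 of the pairs, at 0.00108 and 0.14.

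Library by library, the change with the hairpin did not keep one direction for any tested member. In pair 1 the AAV-shbrpf1 level exceeded the AAV-scramble level by 9.69% for Dlx1, 7.56% for Dlx2 and 10.2% for Dlx5. In pair 2 the same difference was -20.3%, -9.99% and -10.8%, and in pair 3 it was -11.8%, -23.4% and -19.2%. These genes had the same sign within each pair, although the Dlx2 difference in pair 1 was within counting error. Dlx6 differed by -10.7%, 1.81% and -1.55% in pairs 1, 2 and 3, and Dlx6os1 by -14.8%, -40.6% and 43.5%. Dlx6 and its antisense RNA had opposite signs in pairs 2 and 3. Each member was lower in 2 of 3 pairs, and none was lower in 3 of 3, which held for 11.3% of all genes tested. Groups overlapped for all 5, whereas 1.07% of all genes had groups that did not overlap.

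Counting error was small beside the spread between libraries. From the estimated depth the libraries held 931 to 3448 fragments of Dlx1, 242 to 932 of Dlx2, 196 to 561 of Dlx5, 144 to 409 of Dlx6 and 598 to 3899 of Dlx6os1. Counting error was then between 1.6% and 8.34% of a value, the latter for Dlx6. Of the 15 differences within pairs, 3 were smaller than the combined counting error (1 SE) of their 2 libraries. These were Dlx6 in pairs 2 and 3 (1.81% and -1.55%, errors of 10.7% and 9.13%) and Dlx2 in pair 1 (7.56%, error of 8.35%).

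**Figure D3:**
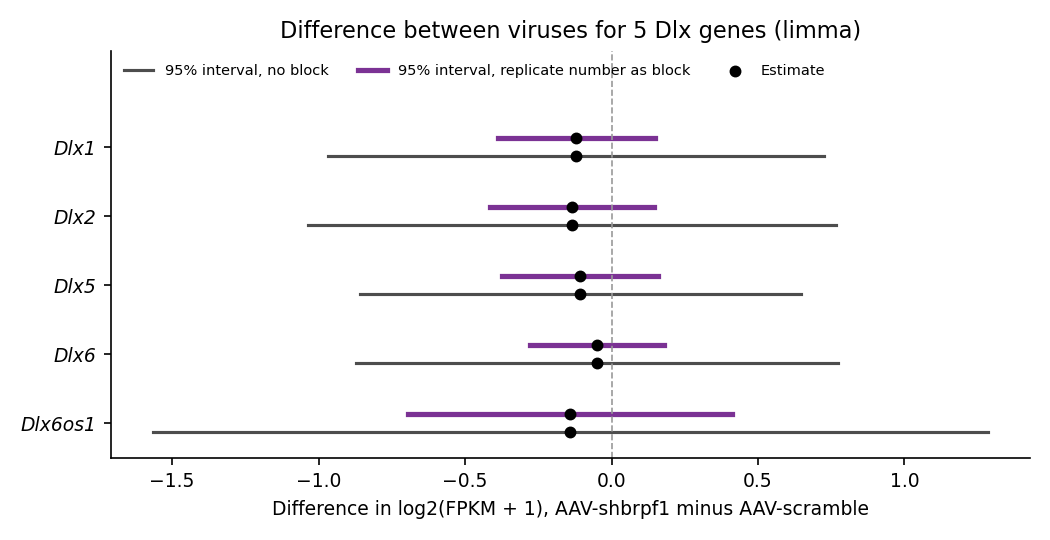
Difference between the viruses for Dlx1, Dlx2, Dlx5, Dlx6 and Dlx6os1 in log2(FPKM + 1), AAV-shbrpf1 minus AAV-scramble (x axis). Dots are limma estimates, thin grey bars 95% intervals without a block and thick purple bars 95% intervals with the replicate number as a block. Estimates run from -0.14 to -0.05, and all intervals of both fits include 0.

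Between replicate numbers the Dlx genes differed, as most genes tested did, and the sources used here do not define the numbers. In limma's F test between numbers, with the virus in the model, 5 of 5 tested members passed, against 69.4% of all genes tested. The adjusted p was 0.00482 for Dlx1, 0.00425 for Dlx2, 0.008 for Dlx5, 0.00347 for Dlx6 and 0.00649 for Dlx6os1. Differences between numbers were thus common in the table. Without AAV-scramble library 1 the count fell to 2 of 5, Dlx1 and Dlx2, with an adjusted p of 0.087 for Dlx5, 0.0513 for Dlx6 and 0.0507 for Dlx6os1. The share of all genes that passed fell with it, from 69.4% to 37.4%.

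Directions differed among members. Of 15 differences between 2 numbers (5 members, 3 pairs of numbers), 10 passed as deposited, and 6 passed also under median-of-ratios and upper-quartile scaling. Dlx5 was higher in number 2 than in number 1 by 0.74 ± 0.13 (SE, log2 scale, limma adjusted p = 0.00465), where 22.9% of all genes were called higher and 42.4% lower. In the same comparison Dlx6 differed by -0.91 ± 0.11 (adjusted p = 0.00169) and Dlx6os1 by -1.81 ± 0.27 (adjusted p = 0.00284). Number 3 minus number 1 gave 1.05 ± 0.14 for Dlx2 (adjusted p = 0.00874) and -0.70 ± 0.11 for Dlx6 (adjusted p = 0.012), where 15.3% of genes were called higher and 15.8% lower. For Dlx1 number 3 exceeded number 2 by 0.93 ± 0.13 (adjusted p = 0.00663), with 34.3% of genes called higher and 12.9% lower.

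Other differences between numbers changed their sign or their call with the scaling. The median of all genes was itself -0.25 for number 2 minus number 1 and 0.25 for number 3 minus number 2 as deposited. For Dlx1, number 2 minus number 1 was -0.23 as deposited and 0.17 under median-of-ratios scaling, and for Dlx6, number 3 minus number 2 went from 0.22 to -0.07. Neither passed on any scale. Dlx2 in number 2 against number 1 measured 0.37 (adjusted p = 0.06) and passed under median-of-ratios scaling only, at 0.74 (adjusted p = 0.00733). The calls of Dlx1 and Dlx5 in number 3 minus number 1 (0.71 ± 0.13 and 0.66 ± 0.13, SE) were lost under upper-quartile scaling, at 0.63 ± 0.25 and 0.58 ± 0.25 (SE, limma adjusted p = 0.0513 and 0.0755). There the estimates moved little and the SE was larger. Those of Dlx2 and Dlx6os1 in number 3 minus number 2 (0.69 and 0.87) were lost under median-of-ratios scaling, at 0.38 ± 0.15 and 0.56 ± 0.26 (SE, adjusted p = 0.0914 and 0.137). Dlx6os1 in number 3 minus number 1 (-0.93, adjusted p = 0.0503) passed under upper-quartile scaling only, and Dlx5 in number 3 minus number 2 (-0.09) passed on no scale.

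Markers of other cells and signs of RNA composition moved with the numbers too. Progenitor markers summed to 919 and 970 FPKM in the libraries numbered 1, 330 and 296 in those numbered 2, and 830 and 830 in those numbered 3. Most of this sum was Fabp7, at 730 and 758 FPKM in number 1, 187 and 169 in number 2, and 581 and 570 in number 3. The other progenitor markers did not share one order. By the mean of a number, Sox2 was highest in number 3 (56.8 FPKM, 36.4 in number 1) and Mki67 in number 1 (9.21 FPKM, 5.12 in number 3). The mesenchyme sum was 38.2 and 17.2 FPKM in number 1 and at most 1.73 elsewhere, and the endothelial and mural sum 27.3 and 25.5 in number 1 and at most 2.72 elsewhere. In number 1 the latter was mainly Tagln (13.5 and 12.5 FPKM) and Acta2 (11.5 and 11.6). Pecam1, Kdr, Flt1 and Cldn5 of the same list stayed at or below 0.452 FPKM in all libraries, and Pdgfrb at or below 1.78. Fragments from ribosomal RNA features made up 5.33% and 8.33% of number 2 and 1.5% to 2.64% of the other 4 libraries. Mitochondrially encoded genes took 5.6% and 6.09% in number 1, 1.8% and 1.34% in number 2 and 4.03% and 3.71% in number 3. Their part in the differences of Dlx genes was not tested.

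GC content moved with the numbers across genes and sorted the Dlx members in part. The longest transcript of Dlx6os1 has 38.2% GC, at percentile 2.54 of the tested genes, against 49.4% for Dlx6, 54.6% for Dlx1, 54.7% for Dlx5 and 58.3% for Dlx2. Across 12785 genes the difference of number 2 minus number 1 had a Spearman rho of 0.77 with GC, that of number 3 minus number 1 a rho of 0.49, and that of number 3 minus number 2 a rho of -0.67. Genes share their libraries and are not independent, so these are descriptions. Genes within 5 percentiles of the GC of Dlx6os1 had a median difference of -1.34 for number 2 minus number 1, beside -1.81 for Dlx6os1. The corresponding medians were -0.26 beside -0.91 for Dlx6, 0.33 beside 0.74 for Dlx5, 0.33 beside -0.23 for Dlx1 and 0.58 beside 0.37 for Dlx2.

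In number 3 minus number 1 the median of genes of like GC was -0.64 beside -0.93 for Dlx6os1, 0.05 beside -0.70 for Dlx6 and 0.24 beside 1.05 for Dlx2. For Dlx1 and Dlx5 it was 0.18, beside 0.71 and 0.66. In number 3 minus number 2 it was -0.15 beside 0.93 for Dlx1, -0.31 beside 0.69 for Dlx2, -0.15 beside -0.09 for Dlx5, 0.31 beside 0.22 for Dlx6 and 0.64 beside 0.87 for Dlx6os1. The sign of that median was the sign of the Dlx6os1 and Dlx5 differences in all 3 comparisons. It was the opposite of the sign of Dlx1 in number 2 minus number 1, of Dlx6 in number 3 minus number 1 and of both Dlx1 and Dlx2 in number 3 minus number 2. These signs are those of the values as deposited, and Dlx1 in number 2 minus number 1 turned to 0.17 under median-of-ratios scaling. The part of GC content in these differences was not tested.

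**Figure D4:**
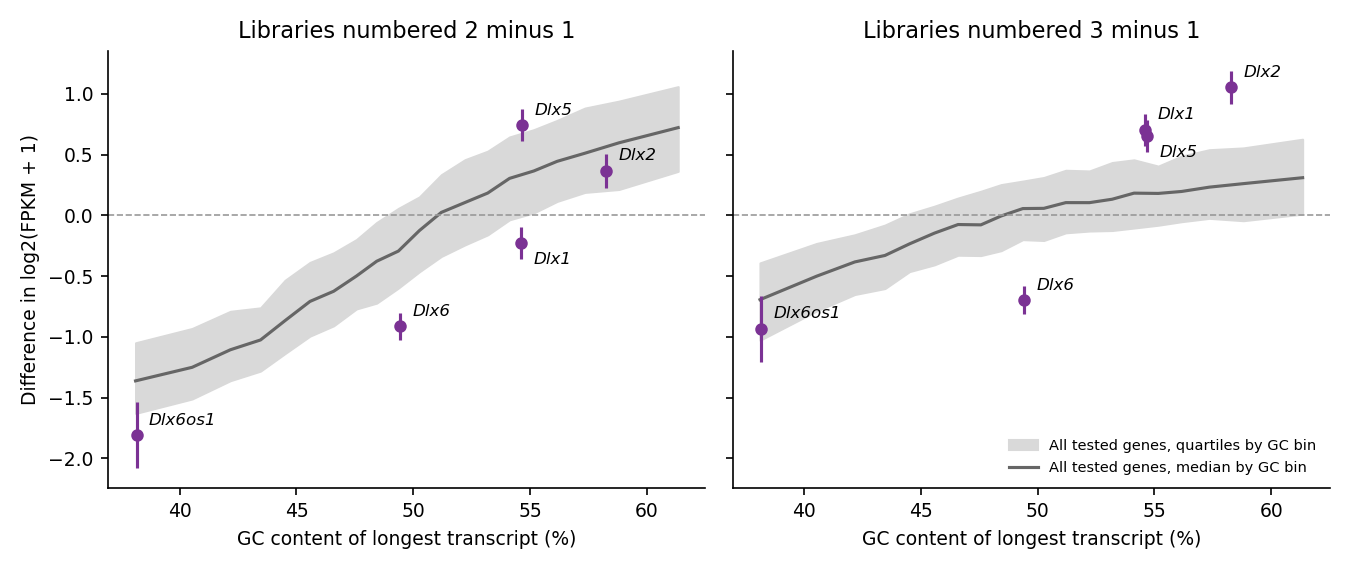
Difference between replicate numbers in log2(FPKM + 1) (y axis) against GC content of the longest transcript in percent (x axis), for number 2 minus 1 (left) and 3 minus 1 (right). The grey line and band give the median and quartiles of all tested genes in bins of GC, and purple points with bars give 5 Dlx genes with their SE. The line climbs with GC in both panels, Dlx6os1 lies at the far left at -1.81 and -0.93, and Dlx6 lies below the band in both.

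Ratios within a locus set members against each other in the same library, so that depth cancels. A shift linked to GC content need not cancel. Dlx5 over Dlx6 was 0.901, 3.84 and 3.11 in AAV-scramble libraries 1, 2 and 3 and 1.11, 3.36 and 2.55 in AAV-shbrpf1 libraries 1, 2 and 3. This pair was level in number 1 and tilted to Dlx5 in numbers 2 and 3. Its log2 ratio had number means that spanned 1.84, while libraries of the same number differed by at most 0.30. Dlx2 over Dlx1 was 0.315, 0.46 and 0.449 with AAV-scramble and 0.309, 0.52 and 0.39 with AAV-shbrpf1, a span of 0.65 against at most 0.20. Dlx6os1 over Dlx6 was 4.81, 3.43 and 3.45 with AAV-scramble and 4.59, 2.00 and 5.03 with AAV-shbrpf1. Here the span of 0.84 was close to the largest difference between libraries of the same number, 0.78.

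Between viruses the log2 ratios differed by -0.02 for Dlx2 over Dlx1, -0.06 for Dlx5 over Dlx6 and -0.10 for Dlx6os1 over Dlx6. Exact two-sided permutation tests gave p = 0.9, 1 and 0.9, each 1 after Benjamini-Hochberg adjustment over the 3 ratios, and 3 samples against 3 allow no p below 0.1. These tests do not use the pairs. In exact sign-flip tests within pairs the smallest p of the 3 ratios was 0.75, where 3 pairs allow no p below 0.25. The balance within the Dlx5 and Dlx6 pair thus varied with the replicate number, and no change of it with the virus was found. In number 2 minus number 1, genes of GC like Dlx5 had a median difference of 0.33 and those like Dlx6 of -0.26. The part of GC content in this ratio was not tested.

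**Figure D5:**
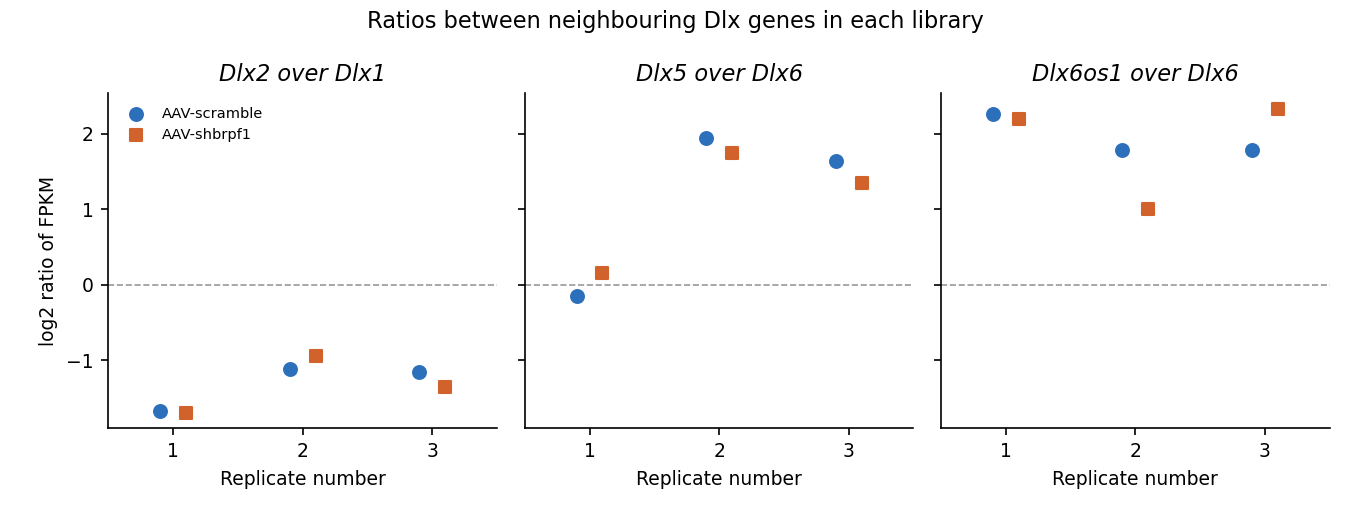
Log2 ratio of FPKM (y axis) for Dlx2 over Dlx1, Dlx5 over Dlx6 and Dlx6os1 over Dlx6 against the replicate number. Blue circles are AAV-scramble, orange squares AAV-shbrpf1, and the dashed line marks equal levels. Dlx5 over Dlx6 lies near 0 in number 1 and above 1 in numbers 2 and 3 under both viruses.

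The sum of Dlx1, Dlx2, Dlx5 and Dlx6 was 49.1, 55.2 and 82.8 FPKM under the scrambled hairpin and 51.5, 47.9 and 70.2 FPKM under the Brpf1 hairpin. Dlx1 supplied between 36.1% and 50.7% of it. Dlx6 supplied 21.9% and 18.6% in number 1 and 7.15% to 10.3% elsewhere. Set over the summed level of Gad1, Gad2 and Slc32a1, which make GABA and load it into vesicles, the Dlx sum was 0.137, 0.197 and 0.358 with AAV-scramble and 0.159, 0.188 and 0.289 with AAV-shbrpf1. Dlx RNA per unit of these transcripts was therefore highest in the libraries numbered 3 and lowest in those numbered 1.

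Antisense partners limit what a gene value means here, since the sources used here do not state whether strand was used. Dlx6 and Dlx6os1 share 0 exon bases, so reads of their spliced RNA fall on separate exons. All 2375 exon bases of Dlx6 lie within the span of Dlx6os1, however. Without strand, reads of unspliced Dlx6os1 RNA over these bases could not be told from reads of Dlx6. Dlx1as, the antisense RNA of the Dlx1 locus, shares 335 exon bases with Dlx1, which is 6.21% of Dlx1 and 20.6% of Dlx1as. Dlx1as measured 17, 21.2 and 24.4 FPKM under the scrambled hairpin and 14.8, 18.4 and 24.4 FPKM under the Brpf1 hairpin. It was lowest in the libraries numbered 1 and highest in those numbered 3, which is the order of Dlx2. Dlx6os2 shares 104 bases with Dlx6 and stayed at or below 0.493 FPKM.

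Factors that act upstream of Dlx genes were measured beside them, from a list of 9 regulators. Of the 7 that passed the filter 0 differed between viruses, with a median log2 difference of 0.01 beside -0.02 for all genes, and 7 differed between replicate numbers (69.4% of all genes). Meis2, a homeodomain cofactor, measured 8.32, 9.36 and 16.4 FPKM under the scrambled hairpin and 8.12, 9.10 and 15.7 FPKM under the Brpf1 hairpin. Like Dlx1, it was high in both libraries numbered 3. Gsx2, a homeodomain factor that acts above Dlx2 in the lateral eminence, did not pass the filter and was looked up after its values were seen. It measured 0.412, 0.256 and 0.518 FPKM under the scrambled hairpin and 0.155, 0.183 and 0.203 FPKM under the Brpf1 hairpin, from 4 to 18 fragments. These values chose it, so they are given with no test.

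Genes that act downstream showed no call between viruses either. Of 24 genes known to fall in Dlx mutants or to be bound by DLX proteins 21 were measured, with 0 called, 7 differences above 0 and 14 below (59.5% of all genes tested were below 0), and a median of -0.04. Between numbers 19 of the 21 differed, beside 69.4% of all genes tested. Sst, the somatostatin gene, measured 403 ± 201 FPKM with AAV-scramble and 349 ± 103 with AAV-shbrpf1 (SD, n = 3), Npy, for neuropeptide Y, 149 ± 95.1 and 117 ± 64.5, and Gad1, for a GABA-making decarboxylase, 126 ± 44.6 and 117 ± 34.3. Sst and Npy were lowest in the libraries numbered 1, as Dlx5 was, and Gad1 was highest there, as Dlx6 was. Of 12 genes known to be raised in Dlx mutants 10 were measured, with 0 called between viruses, a median of 0.01 and, beside the same 69.4% of all genes, 10 called between numbers. Gap43 and Mapt, for proteins of growing neurites, had levels of 396 ± 70.8 and 242 ± 79.7 FPKM with AAV-scramble and 396 ± 111 and 242 ± 82.6 with AAV-shbrpf1. The oligodendrocyte lineage factor Olig2, which Dlx1 and Dlx2 hold down, stood at 46.3 ± 13.7 and 47.3 ± 10.9 FPKM.

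Genes within 500 kb of the members were counted to set each locus in its surroundings. Around Dlx1 and Dlx2, 11 of 22 neighbours were measured and 9 of those differed between numbers, beside 69.4% of all genes tested. The most abundant, after Dlx1as, was Dync1i2, for a dynein intermediate chain, at 26.8, 11.2 and 18 FPKM under the scrambled hairpin and 25, 9.87 and 19.4 FPKM under the Brpf1 hairpin. Its order by number (1 high, 2 low) was not that of Dlx1 or Dlx2. Around Dlx5 and Dlx6 only Sem1, for a small proteasome subunit, was measured of 21 neighbours, and it did not pass between numbers (10.7 ± 2.72 and 10.9 ± 0.626 FPKM by virus, adjusted p between numbers 0.232). Around Dlx3 and Dlx4, 12 of 39 were measured and 10 differed between numbers, against the same 69.4%. Ppp1r9b, for the spine protein spinophilin, and Samd14 reached 86.9 ± 31.2 and 51.9 ± 20.6 FPKM with AAV-scramble, in contrast to Dlx3 and Dlx4 at or near 0. No neighbour at any of the 3 loci was called between viruses.

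Profiles over the 6 libraries were compared by the root mean square (RMS) difference of log2(FPKM + 1), each centred on its own mean, over 11438 other genes. Among the members Dlx1 and Dlx2 were closest (0.25), followed by Dlx2 and Dlx5 (0.32) and Dlx6 and Dlx6os1 (0.46), while Dlx5 and Dlx6os1 were farthest apart (1.09). Dlx5 and Dlx6, which share a locus and enhancers, were 0.73 apart. The profiles nearest to Dlx1 were those of Rpl26, Sncaip and Cdk19 (0.07 each), and nearest to Dlx2 those of Mfng (0.05), Mlc1 (0.08) and Gpd1 (0.10). Sufu (0.05), Aff3 and Incenp (0.06 each) lay nearest to Dlx5, and Nars, Mdh1 and Acot9 (0.03 each) nearest to Dlx6. For Dlx6os1 they were Osbpl8, Scai (0.06 each) and Fam208b (0.08). The nearest of 11438 genes lies close by the size of that search, so these names are a description only.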

How the data were processed

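RNA of 6 samples was sequenced as paired ends. The authors deposited a single table whose header names no unit; its deposited values were read as FPKM from their form (not whole, unequal totals, steps with transcript length). StringTie, FastQC and DESeq2, without roles or versions, and build mm9 are named in the submitters' processing notes, but coordinates match GRCm38 gene models. The sources used here do not give the aligner, the annotation or whether strand was used. Columns were matched to samples by group and number.

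Genes averaging 1 FPKM or more in either group (12792) were tested on log2(FPKM + 1), a scale that understates changes of low genes, with limma 3.58.1 (R 4.3.3, trend, two-sided, Benjamini-Hochberg over all genes, threshold 0.05). Deviations from group means correlated at 0.87, 0.83 and 0.57 between same-numbered libraries and at most at 0.00199 otherwise. Centring in groups of 3 lowers the latter where the former are high, so they are no separate support. Levels without centring correlated at 0.978 to 0.984 between same-numbered libraries and at most at 0.938 otherwise. The numbers were therefore taken to pair the libraries. This comes from the values, as the labels leave the numbers undefined. Depth (13.1 to 21.1 M fragments) was estimated from 11673 single-exon genes; counting errors rest on it and cover counting error only. Members and gene lists were chosen with earlier results of these data known. Named genes are the members, Brpf1, the 3 most abundant of each pathway list, the 2 most abundant neighbours per locus, those leading marker lists, and the 3 nearest profiles per member; some genes that this rule would name are not reported here, and Gsx2, outside the rule, was chosen after its values were seen. Alternatives were the pseudocount, the filter, scaling, the block and leaving out libraries.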

Additional observations from a re-analysis of the deposited data

How the results depend on the processing

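No Dlx member passed between viruses under any alternative run (pseudocount, filter, scaling, replicate block, leaving out libraries), with 0 called of 5 tested, or of 7 without a filter, and no listed gene or neighbour did. With the replicate block the log2 difference was -0.12 for Dlx1, -0.14 for Dlx2, -0.11 for Dlx5, -0.05 for Dlx6 and -0.14 for Dlx6os1, and it changed no call. Over all genes the count stayed at 0, except that under the replicate block it ran from 0 to 3 over the pairs left out (3 without pair 2, 1 without pair 3). Without a block, signs were not stable when single libraries were left out, which breaks a pair. The log2 difference then ran from -0.38 to 0.17 for Dlx1, -0.43 to 0.21 for Dlx2 and -0.40 to 0.068 for Dlx5. For Dlx6 it ran from -0.29 to 0.24 and for Dlx6os1 from -0.58 to 0.45. With whole pairs left out under the block it stayed below 0 for Dlx1, Dlx2 and Dlx5. It reached 0.00108 for Dlx6 without pair 1 and 0.14 for Dlx6os1 without pair 2. Log2 ratios by virus ran from -0.21 to 0.16 for Dlx2 over Dlx1, -0.70 to 0.41 for Dlx5 over Dlx6 and -0.34 to 0.32 for Dlx6os1 over Dlx6. Between numbers, 2 to 5 of 5 members and 4786 to 8655 of all genes passed with a library left out, and 5493 genes of the 7213 that met a filter of 5 FPKM. The comparisons between 2 numbers were added after the data were seen. Under median-of-ratios scaling Dlx1 (number 2 minus 1) turned to 0.17 and Dlx6 (3 minus 2) to -0.0698. Unblocked 95% intervals by virus run from -0.86 to 0.65 for Dlx5, the narrowest, and from -1.57 to 1.29 for Dlx6os1, the widest, before adjustment over genes.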
